A study of Mus musculus with 6 samples.

Results

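The genes described here handle iron and heme, namely the iron exporter Slc40a1 (ferroportin), the iron importers Tfrc, Slc11a1 and Slc11a2, the ferritin subunits Fth1 and Ftl1, and Hmox1, Blvra, Blvrb and Slc48a1, which take part in heme breakdown. They are 10 of the 23504 genes in the table, matched by Ensembl identifier, and all 10 had a mean of at least 1 FPKM (fragments scaled to the length of the gene and to the fragments counted in the library). The genes were chosen by function and by their measured values in the DASA-58 and DMSO libraries. The differences of these 10 between the groups are therefore given as a description. They were included in the test across all genes, and no p-value of theirs is printed. RNA-seq was performed on bone marrow–derived macrophages (BMMs) of C57BL/6 mice, aged 6 to 8 weeks according to the methods and with no transgene or deletion named in the labels. There were 3 libraries treated with DASA-58, an activator of the glycolytic enzyme PKM2, and 3 treated with its solvent DMSO, all taken after 3 days. The results text of the study has both groups induced with RANKL, the cytokine that turns BMMs into osteoclasts, whereas its methods name RANKL with the compound only. The methods also write DASA-48, and no concentration is given for this experiment. Neither the number of animals nor separate cultures are given for the libraries, so any p-value measures the spread between these samples, which may be technical.

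Macrophages take up iron bound to transferrin through the transferrin receptor Tfrc and recover further iron from the heme of red cells they engulf. Heme leaves the phagolysosome through Slc48a1 (HRG1), heme oxygenase 1 (Hmox1) opens its ring and frees the iron, and biliverdin reductases turn the biliverdin into bilirubin. Free iron is stored in ferritin, a shell of heavy (Fth1) and light (Ftl1) chains, or leaves the cell through ferroportin, the only known cellular iron exporter in mammals. Osteoclasts are rich in mitochondria, and iron uptake through Tfrc is known to accompany their maturation.

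Several of these mRNAs carry an iron responsive element, a short hairpin that the iron regulatory proteins Aco1 (IRP1) and Ireb2 (IRP2) bind when iron is scarce. In a 5′ UTR the element holds back translation, which mRNA levels do not show, and in the 3′ UTR of Tfrc it protects the mRNA from decay. The elements are shown to mark which of the 10 mRNAs hold the pattern searched here, and elements outside this pattern are missed. The transcripts of GENCODE M21 (build GRCm38) were searched on the sense strand for CAGTG followed by A, C or T, with a bulged C 6 bases before the loop and 5 paired bases on either side of it, G:U pairs allowed. The capitals mark CAGTG, the first bases of the loop, and each sequence runs 5′ to 3′ over 29 bases.
Fth1 5′ UTR: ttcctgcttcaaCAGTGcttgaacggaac
Ftl1 5′ UTR: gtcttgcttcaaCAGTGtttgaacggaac
Slc40a1 5′ UTR: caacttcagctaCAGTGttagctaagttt
Tfrc 3′ UTR, element a: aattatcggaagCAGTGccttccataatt
Tfrc 3′ UTR, element b: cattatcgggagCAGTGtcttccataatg
Tfrc 3′ UTR, element c: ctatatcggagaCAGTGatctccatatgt
Tfrc 3′ UTR, element d: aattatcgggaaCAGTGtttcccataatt

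The Fth1 element lay at chr19:9982732-9982760 (+), the Ftl1 element at chr7:45459779-45459807 (-) and the Slc40a1 element at chr1:45925465-45925493 (-). Those of Tfrc lay at chr16:32631219-32631247, chr16:32631598-32631626, chr16:32631663-32631691 and chr16:32631710-32631738, all on the + strand. The pattern was in a UTR of 123 of 21901 coding genes (0.562%), 23 of them in the 5′ UTR and 100 in the 3′ UTR. Of the 10 genes, 3 held it in the 5′ UTR and 1 in the 3′ UTR. The other 6 had no match, which says only that these letters were not found. A match is a description of the sequence and not of binding.

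**Figure D1:**
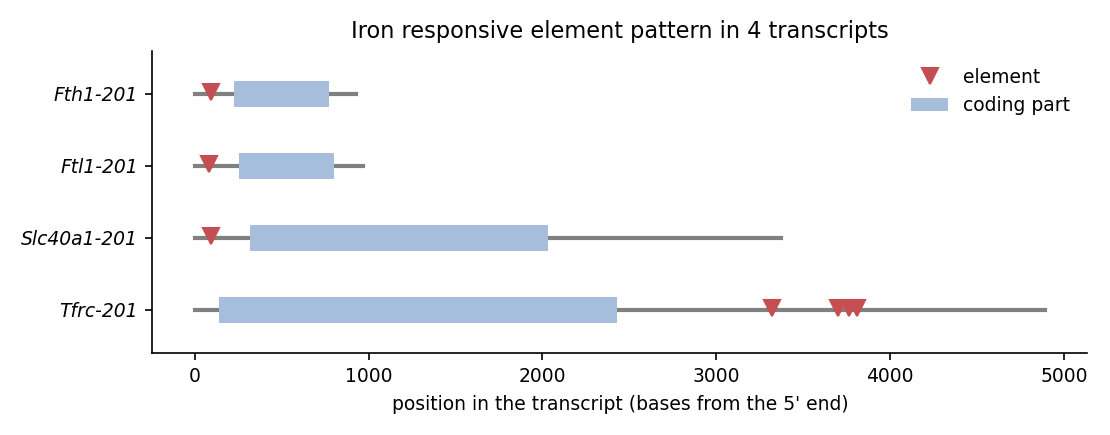
Position of the iron responsive element pattern (triangles) along 1 transcript of each of 4 genes, in bases from the 5′ end, with the coding part as a blue box and the UTRs as a line. The bulged C of the element lies 93, 84 and 96 bases into Fth1, Ftl1 and Slc40a1, before the coding part, whereas the 4 matches found in Tfrc lie after it, between 3321 and 3812 of 4890 bases.

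The libraries held between 18191560 and 18968556 fragments, recovered from the steps of the FPKM values. Across the 10965 genes tested with limma, 465 were higher (4.24%) and 798 lower (7.28%) with DASA-58 at a Benjamini-Hochberg adjusted p under 0.05, together 11.5%. When each library was centred on its median, the same test gave 597 higher and 504 lower genes. The median log2(FPKM + 1) difference over all genes tested was -0.03. The labelled cell type held macrophage markers at a summed 16491 to 17327 FPKM with DMSO and 17433 to 19746 FPKM with DASA-58, with 4 of 10 tested markers higher and 2 lower. Lyz2 made up most of these sums, at 14701 to 15513 FPKM with DMSO and 15447 to 17767 FPKM with DASA-58, and its groups overlapped. All 10 tested osteoclast markers were lower with DASA-58 (summed 802 to 857 FPKM against 467 to 486 FPKM), and 4 of 9 tested neutrophil markers were lower (summed 180 to 184 FPKM against 143 to 149 FPKM). Of 13 erythroid markers 6 had a row, and none of these passed 0.243 FPKM in any library. In bulk libraries fewer cells of a type and less RNA per cell cannot be told apart, and the part of the osteoclast, macrophage and neutrophil markers in the results that follow was not tested.

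All 10 iron and heme genes had a higher mean with DASA-58 than with DMSO, by a factor between 1.01 for Ftl1 and 1.82 for Slc40a1. The log2 differences ranged from 0.01 to 0.80 with a median of 0.20. In the fit across all genes 6 of the 10 were called higher (Slc40a1, Slc11a1, Fth1, Hmox1, Blvrb and Slc48a1) and 0 lower, and in 9 of 10 all DASA-58 values lay above all DMSO values. Over all genes tested, 4.24% were called higher and 7.28% lower, and 11.8% were higher and 21.6% lower without overlap between the groups. The 10 genes were selected on this contrast, and nothing is read from these counts. Of the 4 not called, Tfrc, Slc11a2 and Blvra did not overlap between the groups, and Ftl1 did.

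**Figure D2:**
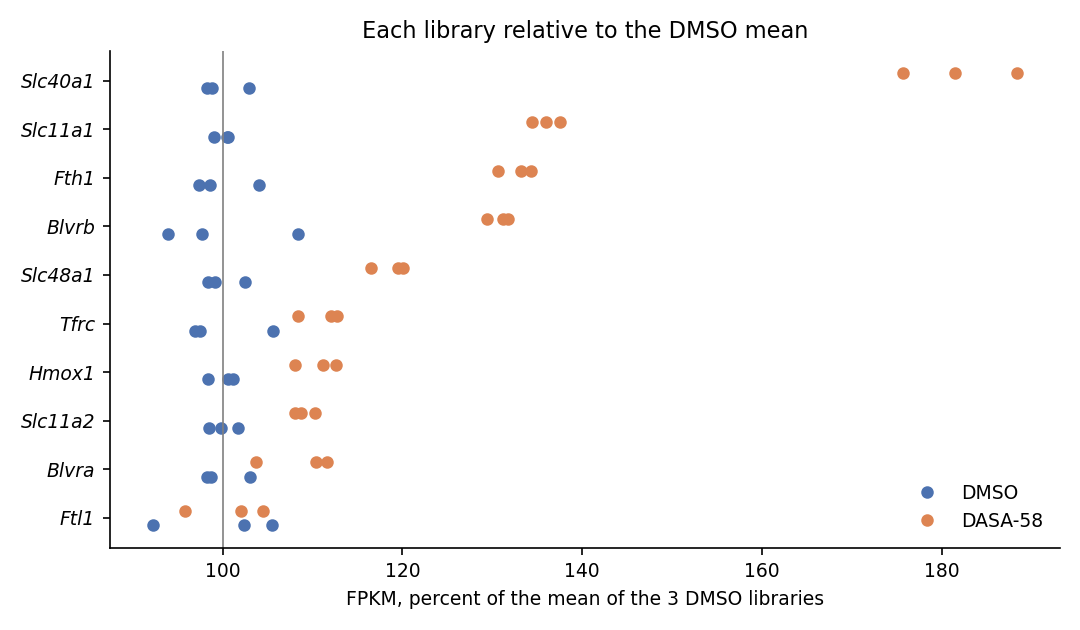
FPKM of each library as a percentage of the mean of the 3 DMSO libraries (x axis) for the 10 genes, 1 point per library, DMSO in blue and DASA-58 in orange. The 3 DASA-58 points of Slc40a1 lie at 176%, 181% and 188%, those of Slc11a1, Fth1 and Blvrb between 129% and 138%, and the points of Ftl1 from both groups overlap.

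Slc40a1 (ENSMUSG00000025993, chr1:45908068-45926523, - strand, GRCm38) encodes ferroportin, which moves ferrous iron out of the cell and is removed from the membrane when hepcidin binds it. Its level was 10.5, 10.0 and 9.99 FPKM in DMSO replicates 1, 2 and 3 and 19.1, 18.5 and 17.9 FPKM in DASA-58 replicates 1, 2 and 3. The lowest DASA-58 library thus stood above the highest DMSO library by more than the spread within either group. The means were 10.2 ± 0.258 and 18.5 ± 0.642 FPKM (SD, n = 3 each), a ratio of 1.82 and a log2(FPKM + 1) difference of 0.80 ± 0.04 (SE). This was the 13th largest difference upward among the 10965 genes tested. Between 1638 and 1728 fragments with DMSO and between 3021 and 3245 with DASA-58 stood behind these values, so counting error was small beside the difference.

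The FPKM of Slc40a1 divided its fragments by 9000 bases, the length of all its annotated exons together, while its transcript Slc40a1-201 is 3370 bases long. Its level is therefore understated against genes whose exons make 1 compact transcript, and the ratio between the groups is not affected by the length. Ferroportin mRNA is known to exist in forms with and without the 5′ element shown above, and values per gene do not separate them.

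The genes whose pattern over the 6 libraries was most like that of Slc40a1, by the mean absolute difference of log2(FPKM + 1) centred on each gene's mean, were Gclm (0.025), Clec4n (0.031) and Cat (0.048). Gclm, a subunit of glutamate-cysteine ligase in glutathione synthesis, measured 37.9 to 39.7 FPKM with DMSO and 64.9 to 68.4 FPKM with DASA-58. Clec4n, the myeloid lectin dectin-2, measured 58.3 to 61.8 FPKM with DMSO and 109 to 112 FPKM with DASA-58. Cat, the heme enzyme catalase that breaks down hydrogen peroxide, measured 209 to 213 FPKM with DMSO and 344 to 348 FPKM with DASA-58. Among the 10 genes themselves the nearest to Slc40a1 were Slc11a1, which was 66th of all genes tested, Fth1, which was 84th, and Blvrb, which was 99th. Their order was that of their log2 differences (0.44, 0.41 and 0.39), as this measure mostly follows the size of the group difference. The ranks thus restate the contrast on which the 10 genes were chosen.

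Of the 3 importers, Slc11a1 differed most between the groups, and Tfrc and Slc11a2 showed smaller differences. Slc11a1 (NRAMP1; ENSMUSG00000026177, chr1:74375195-74386062, + strand), a divalent metal transporter of the phagolysosome membrane that is typical of macrophages, measured 112, 112 and 110.2 FPKM with DMSO and 151, 149.6 and 153 FPKM with DASA-58. The groups were far apart and each was tight, with means of 111 ± 0.954 and 151 ± 1.74 FPKM (SD, n = 3 each). The ratio was 1.36, and the log2 difference of 0.44 ± 0.02 (SE) was 101st of all genes tested.

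Tfrc (chr16:32608920-32632794, + strand), the transferrin receptor whose 4 matches to the pattern are shown above, measured 40.7, 40.4 and 44.0 FPKM with DMSO and 47.0, 45.2 and 46.7 FPKM with DASA-58. DMSO replicate 3 came close to DASA-58 replicate 2, although the groups did not overlap. The ratio was 1.11 and the log2 difference 0.15 ± 0.04 (SE). Slc11a2 (DMT1; chr15:100387898-100425072, - strand), which carries ferrous iron out of the endosome after transferrin uptake, measured 9.97, 10.3 and 10.1 FPKM with DMSO and 11.2, 10.9 and 11.0 FPKM with DASA-58. Its ratio was 1.09 and its log2 difference 0.11 ± 0.04 (SE). Some Slc11a2 transcripts are known to carry a less regular element, and the pattern searched did not find it.

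Within a library, the level of ferroportin relative to Tfrc and Slc11a2 was higher with DASA-58, although it remained below Tfrc in every library. The ratio of Slc40a1 to Slc11a2 was 1.004 ± 0.0393 with DMSO and 1.67 ± 0.0471 with DASA-58 (SD, n = 3 each). The ratio of Slc40a1 to Tfrc was 0.244 ± 0.0156 with DMSO and 0.399 ± 0.0147 with DASA-58. That of Slc11a1 to Slc11a2 was 11.0 ± 0.199 and 13.7 ± 0.175. These ratios within a library do not depend on the scaling between libraries, and their values did not overlap between the groups. The size of each ratio depends on the gene lengths used.

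**Figure D3:**
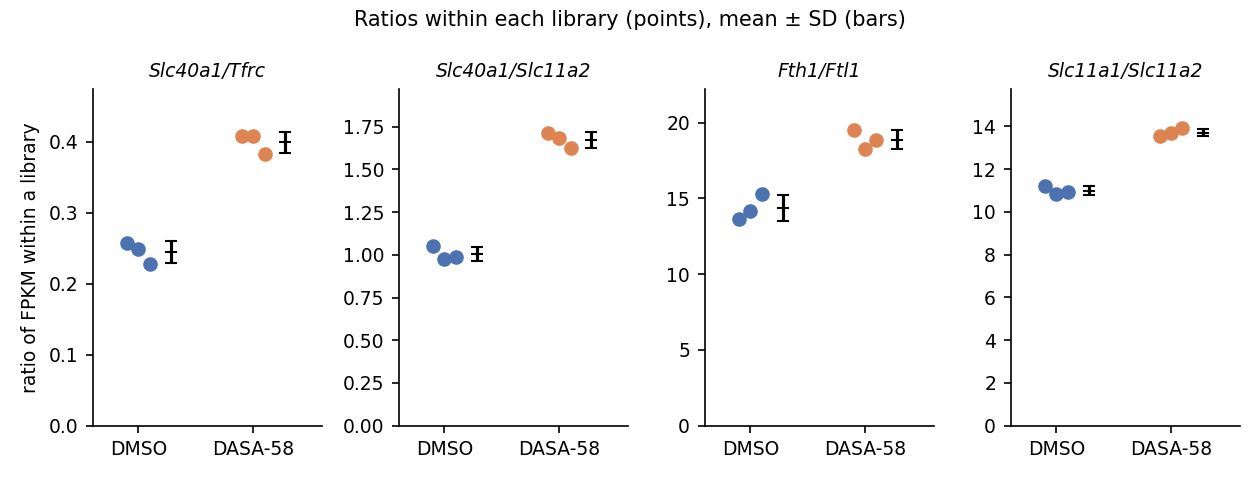
Ratio of the FPKM of 2 genes within each library (y axis, from 0), 1 point per library with the mean ± SD beside it, for 4 pairs of iron genes. In each pair the 3 DASA-58 libraries lie above the 3 DMSO libraries, with Slc40a1/Tfrc at 0.382 to 0.408 against 0.227 to 0.257.

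The ferritin chains differed from each other. Fth1 (ENSMUSG00000024661, chr19:9980598-9985098, + strand), the heavy chain with the ferroxidase activity that oxidizes iron for storage, measured 8863, 9476 and 8979.5 FPKM with DMSO and 11897, 12130.4 and 12235 FPKM with DASA-58. No DMSO library came near the DASA-58 libraries. The means were 9106 ± 326 and 12087 ± 173 FPKM (SD, n = 3 each), a ratio of 1.33 and a log2 difference of 0.41 ± 0.03 (SE). Fth1 had the second highest FPKM of all genes in each of the 6 libraries. With a length of 866 bases, the shortest that made its FPKM whole fragments, it took 0.789% ± 0.028 of all fragments with DMSO and 1.05% ± 0.015 with DASA-58.

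Ftl1 (ENSMUSG00000050708, chr7:45457944-45459884, - strand), the light chain that helps the iron core form, measured 650.4, 670.2 and 586 FPKM with DMSO and 609, 664 and 648 FPKM with DASA-58. The groups overlapped, with DMSO replicate 3 lowest and DMSO replicate 2 highest. The means were 636 ± 43.9 and 641 ± 28.7 FPKM (SD, n = 3 each), and the log2 difference was 0.01 ± 0.05 (SE). The ratio of Fth1 to Ftl1 within a library was 14.4 ± 0.868 with DMSO and 18.9 ± 0.643 with DASA-58, without overlap.

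The Ftl1 level is uncertain because 58.4% of the 50-base windows of its transcripts also occur in transcripts of 17 other genes, most of them ferritin pseudogenes. How fragments that match several genes were counted is not given in the sources used here. The copy Ftl1-ps1, which shares 47.3% of the windows, measured 6.42 to 8.67 FPKM over the 6 libraries. The copy Gm15590, which shares 22.3% of them, measured 22.2 to 29.3 FPKM with DMSO and 29.3 to 35.6 FPKM with DASA-58, and its groups overlapped at their ends. Fth1 shared 1.59% of its windows with 1 gene. Ftl1 also overlaps Gm10252 on the opposite strand, and the use of strand is not given.

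Among the genes of heme breakdown Blvrb differed most between the groups, and Hmox1 and Blvra differed less. Hmox1 (ENSMUSG00000005413, chr8:75093621-75100589, + strand) measured 294, 296 and 287 FPKM with DMSO and 316, 325 and 329 FPKM with DASA-58. All DASA-58 libraries were higher, at means of 292 ± 4.35 and 323 ± 6.72 FPKM (SD, n = 3 each), a ratio of 1.11 and a log2 difference of 0.14 ± 0.03 (SE). Blvrb (chr7:27447978-27466144, + strand), which reduces biliverdin IXbeta and flavins, measured 97.8, 113 and 102 FPKM with DMSO and 137, 137 and 135 FPKM with DASA-58. DMSO replicate 2 stood apart from the other DMSO libraries but below every DASA-58 library. The ratio of its means was 1.31 and the log2 difference 0.39 ± 0.05 (SE).

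Blvra (chr2:127070665-127097084, + strand), the reductase of biliverdin IXalpha that Hmox1 makes, measured 55.8, 55.5 and 58.2 FPKM with DMSO and 62.4, 58.6 and 63.1 FPKM with DASA-58. The highest DMSO and the lowest DASA-58 library nearly met, at a ratio of 1.09 and a log2 difference of 0.12 ± 0.04 (SE). The ratio of Blvrb to Blvra was 1.84 ± 0.164 with DMSO and 2.22 ± 0.107 with DASA-58 (SD, n = 3 each). Slc48a1 (chr15:97778520-97792692, + strand), the heme transporter of the phagolysosome, measured 184, 191 and 183 FPKM with DMSO and 217, 222 and 223 FPKM with DASA-58. Its groups were well apart, with a ratio of 1.19 and a log2 difference of 0.25 ± 0.03 (SE). It overlaps exons of Hdac7 on the opposite strand, which measured 3.94 to 4.68 FPKM over the 6 libraries, and the part of reads from Hdac7 in its level was not tested. The ratio of Slc48a1 to Hmox1 was 0.637 ± 0.00883 with DMSO and 0.683 ± 0.00397 with DASA-58.

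The order of the levels per length was the same in both groups. From the highest it was Fth1, Ftl1, Hmox1, Slc48a1, Slc11a1, Blvrb, Blvra, Tfrc, Slc40a1 and Slc11a2. With DMSO, Slc11a1 and Blvrb overlapped, as did Slc40a1 and Slc11a2, and with DASA-58 no neighbours in this order overlapped. In FPKM Fth1 thus stood far above every other gene of the group, its partner Ftl1 included. The size of this gap depends on the lengths used, 866 bases for Fth1, whose annotated exons make 3469, and 1340 for Ftl1. In recovered fragments Fth1 had 140834 to 154719 with DMSO and 191101 to 200980 with DASA-58. Ftl1 had 14303 to 16932 and 15360 to 16483, with the uncertainty from its copies given above. The place of Slc40a1 beside Slc11a2 also depends on the lengths used, 9000 bases against 6354. With DMSO their recovered fragments did not overlap, at 1638 to 1728 for Slc40a1 and 1163 to 1234 for Slc11a2.

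**Figure D4:**
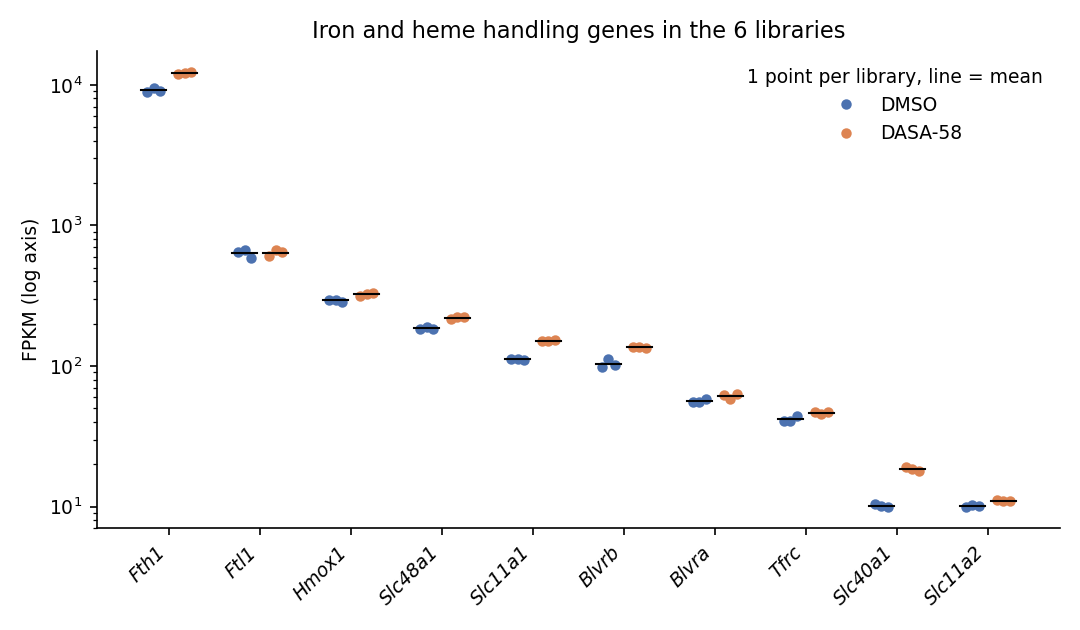
FPKM (log axis) of the 10 genes in the 6 libraries, 1 point per library with a line at the group mean, DMSO in blue and DASA-58 in orange. Genes are ordered by their level with DMSO, from Fth1 (mean 9106 FPKM) to Slc11a2 (mean 10.1 FPKM), and Slc40a1 shows the widest gap between the groups.

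The differences are given here beside the iron responsive element, and since the genes were chosen on this contrast and 3 of the elements lie in a 5′ UTR, nothing about the element is read from them. The 4 genes with a match to the pattern had log2 differences of 0.80 (Slc40a1), 0.41 (Fth1), 0.15 (Tfrc) and 0.01 (Ftl1). Those of the 6 genes without a match, Slc11a2 with its less regular element among them, lay between 0.11 and 0.44. The mRNAs of the proteins that bind the element were close in both groups. Aco1 measured 16.9 ± 0.577 and 17.2 ± 0.202 FPKM and Ireb2 8.31 ± 0.373 and 8.10 ± 0.452 FPKM (SD, n = 3 each), with adjusted p = 0.64 and 0.72 (limma, Benjamini-Hochberg). Fbxl5, which marks Ireb2 for degradation when iron is plentiful, measured 5.93 ± 0.113 and 6.63 ± 0.313 FPKM without overlap, at an adjusted p of 0.097. Iron regulatory proteins are known to be controlled through their iron-sulfur cluster or their stability, which these data do not measure.

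The letters TGACNNNGC, the core of the antioxidant response element that NRF2 and BACH1 bind, were searched on both strands of the promoter windows of RefSeq (GRCm38.p6, 250 bases before to 50 after a start). Of the 10 genes 6 were matched, with 9 windows, and 1 window, that of Blvra, held the letters, against 12.4% of all 32851 windows. Elements known in Hmox1 and in ferritin genes lie further upstream than these windows reach. Slc40a1, Hmox1, Slc11a2 and Slc48a1 were not among the promoters used here.

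The rest of the iron and heme pathway was followed in 6 lists chosen by function, with earlier results of these data known. They held 94 genes, of which 85 had a row and 69 were tested. Of these 69, 1 rose and 3 fell with DASA-58, and 65 did not pass the test (limma, adjusted p under 0.05). The shares over all genes tested were 4.24% higher and 7.28% lower. The median log2 difference of the 69 genes was -0.04, beside -0.03 over all genes tested. Hfe, a partner of the transferrin receptor in iron sensing, rose from 26.0 ± 0.368 to 28.8 ± 0.648 FPKM (log2 difference 0.14 ± 0.03, adjusted p = 0.027). Pcbp1, a chaperone that delivers iron to ferritin, fell from 201 ± 4.98 to 185 ± 4.27 FPKM (log2 difference -0.12 ± 0.03, adjusted p = 0.040).

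Steap4, a metalloreductase that reduces iron and copper, fell from 1.59 ± 0.104 to 0.542 ± 0.095 FPKM (SD, n = 3 each, log2 difference -0.75 ± 0.09, limma adjusted p = 0.0018). It passed the limit of 1 FPKM through its DMSO values alone (limma adjusted p = 0.011 with no filter), and its log2 difference depended on the scale, at -1.41 with a pseudocount of 0.1, -0.25 with a pseudocount of 5 and -1.55 with voom. Its 3 DMSO libraries measured 1.503, 1.56 and 1.71 FPKM and its 3 DASA-58 libraries 0.572, 0.436 and 0.618 FPKM. Nubp1, a scaffold for the assembly of cytosolic iron-sulfur clusters, fell from 9.16 ± 0.164 to 7.65 ± 0.303 FPKM (log2 difference -0.23 ± 0.04, limma adjusted p = 0.013). The calls of Hfe and Pcbp1 were each kept in 1 of the 6 fits that left out a library, and that of Nubp1 in 5 of 6. Without DMSO replicate 1 none of the lists' genes was called, and Steap4 was then under the 1 FPKM limit, as it was without DMSO replicates 2 or 3.

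By list, the control of iron had 7 tested genes with 1 higher and 1 lower, the iron carriers and oxidoreductases 9 with 0 higher and 1 lower, and cytosolic iron-sulfur assembly 9 with 0 higher and 1 lower. No gene passed the test among 13 of heme synthesis, 10 of heme transport and sensing and 21 of mitochondrial iron. Within these lists Alas1 and Fech, the first and last enzymes of heme synthesis, measured 33.1 ± 1.56 and 24.8 ± 0.541 FPKM with DMSO and 32.2 ± 0.582 and 25.1 ± 0.393 FPKM with DASA-58. Hmox2, the constitutive heme oxygenase, measured 44.1 ± 0.133 and 45.9 ± 1.70 FPKM (limma adjusted p = 0.33). Flvcr1, a heme and choline transporter, measured 10.3 ± 0.596 and 10.8 ± 0.344 FPKM, and Bach1, the heme-sensing repressor of Hmox1, 19.9 ± 1.17 and 20.3 ± 0.379 FPKM.

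Other genes close to the ferritin and ferroportin steps were likewise not called. Ncoa4, the receptor that brings ferritin to the lysosome, measured 21.9, 20.6 and 22.6 FPKM with DMSO and 22.2, 18.6 and 17.9 FPKM with DASA-58, with DASA-58 replicate 1 among the DMSO values (limma adjusted p = 0.26). Steap3, the endosomal ferrireductase that acts before Slc11a2, measured 14.3 ± 0.868 and 13.4 ± 0.175 FPKM (SD, n = 3 each, limma adjusted p = 0.29). Its DASA-58 values all lay below its DMSO values, as in 21.6% of all genes tested. Iscu, the scaffold of iron-sulfur assembly in mitochondria, measured 43.9 ± 2.38 and 45.1 ± 2.33 FPKM with DMSO and DASA-58. Cp (ceruloplasmin), a ferroxidase that works with ferroportin, measured 0.356 to 0.416 FPKM with DMSO and 0.314 to 0.355 FPKM with DASA-58. Its groups nearly met without overlap, and it was not tested.

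Slc40a1, Hmox1, Fth1, Ftl1 and Blvrb are known targets of NRF2, the activator of antioxidant genes. The part of NRF2 in their differences was not tested. Of 21 tested NRF2 targets outside iron handling 17 rose and 0 fell (limma, adjusted p under 0.05), with a median log2 difference of 0.29. The shares over all genes tested were 4.24% higher and 7.28% lower. This list was chosen with earlier results of these data known, and nothing is read from its count. In this list Gclm rose by a log2 difference of 0.76 ± 0.03 and Prdx1, a peroxiredoxin, by 0.59 ± 0.03 (SE). Gsta3, a glutathione S-transferase, rose by 0.88 ± 0.04. The 4 tested genes not called, Slc7a11, Txn1, Cbr1 and Tkt, had differences between 0.01 and 0.05.

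**Figure D5:**
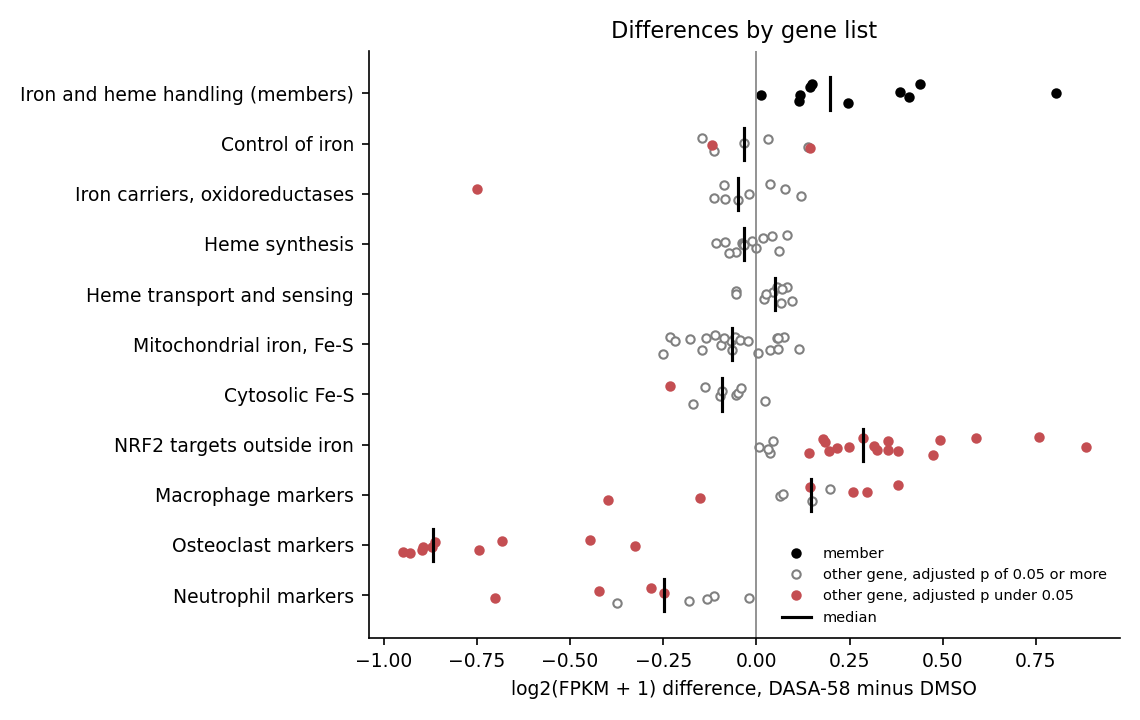
Log2(FPKM + 1) difference between DASA-58 and DMSO (x axis) for each tested gene, by list, with a bar at each median. Filled red points mark an adjusted p under 0.05 and open grey points other genes. Black points are the 10 iron and heme genes, whose calls are not marked. The median is 0.20 for the 10 genes and lies between -0.09 and 0.05 for the 6 other iron and heme lists. It is 0.29 for the NRF2 list and -0.87 for the osteoclast markers. The 10 genes and all lists were chosen with earlier results of these data known, so the medians are a description only.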

How the data were processed

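RNA from BMMs was sequenced in 6 libraries (3 DMSO, 3 DASA-58). The authors deposited FPKM values for 23504 genes, fragments divided by gene length and library depth, and the submitters' processing notes name HISAT2 2.1.0, HTSeq 0.6.0 and the build mm8. All value columns were used and 0 were left unmapped. Whole fragments (within 0.01) were recovered with GENCODE M21 exon lengths for 21340 genes (90.8%), which is a later annotation (GRCm38) than mm8, and with a fitted length for 2105 more, 99.7% in all. Depth was 18349453, 18853041 and 18209396 fragments in DMSO replicates 1 to 3 and 18829062, 18191560 and 18968556 in DASA-58 replicates 1 to 3. A count of 0 allows 3 fragments, counting error only. Of the Ensembl identifiers 23455 had a symbol and 49 had none. Gene coordinates are those of GENCODE M21.

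Log2(FPKM + 1), which understates the change of low genes, was compared with limma 3.58.1 in R 4.3.3 (lmFit, eBayes with a trend) over 10965 genes that averaged 1 FPKM or more, with Benjamini-Hochberg adjustment, all 6 libraries and no block. A gene was called at an adjusted p under 0.05. The fit was tested on simulated data. The study names no tool for its own RNA-seq comparison. The 10 genes and all lists were chosen with earlier results of these data known. Named beside the 10 were the 3 genes with the smallest p of each list among those called, 15 genes fixed by function (1 of them not reported here), and the 3 genes most like Slc40a1. Alternatives were pseudocounts of 0.1 and 5, no filter or 5 FPKM, centring on the median, quantile normalization, equal totals, no trend, an ordinary linear model, a replicate block, voom on the fragments, and each library left out. Plots used matplotlib 3.10.9, and tables pandas 2.3.3 under Python 3.11.15.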

Additional observations from a re-analysis of the deposited data

How the results depend on the processing

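The 10 genes were chosen on this contrast, so their calls describe the fits and support nothing. Slc40a1, Slc11a1 and Slc48a1 were called higher in all 17 alternatives. Slc40a1 kept log2 differences of 0.63 to 0.86, and the count of the 10 genes called higher ran from 4 to 8 (5 to 7 with a library left out), with 0 lower. Fth1 was not called under quantile normalization, where its difference is 0 because it ranks second in every library, nor without a filter, and Blvrb was not called in the ordinary linear model. Hmox1 was called in 13 of 17, Tfrc in 5, Slc11a2 in 3, Blvra in 1 and Ftl1 in 0, its difference lying between -0.04 and 0.05. Their median of 0.20 became 0.22 with median centring and 0.17 with quantile normalization.

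Of the other iron and heme genes 1 rose and 3 fell. The higher count became 2 with quantile normalization or voom and 0 with equal totals, the ordinary model, no trend or the replicate block, and the lower count 5 with equal totals and 10 with voom. With a library left out these counts were 0 to 1 and 0 to 4. Over all genes, 465 higher and 798 lower became 257 and 372 with no filter, 227 and 314 in the ordinary model, 738 and 1323 with voom, and 273 to 373 and 385 to 604 with a library left out, while lower genes numbered 504 with median centring and 515 with no trend. The cause was not tested. With the replicate number as a block 378 rose and 579 fell. Deviations from the group means correlated at -0.016 to 0.016 between same-numbered libraries and at -0.046 to 0.061 between the others. The labels do not say whether the numbers pair the samples, and with 3 libraries per group these correlations cannot show it. Depth limits genes near or under 1 FPKM, such as Steap4 and Cp, and not the 10 genes.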
